A study of Mus musculus with 17 samples.

Results

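The cytochrome P450 (P450) gene family was examined in mouse livers and liver tumors. Members were taken by gene symbol alone, as rows whose symbol starts with Cyp, a number and a letter. Symbols of pseudogenes with the suffix -ps were left out, and so were the bile acid synthesis enzymes Cyp7a1, Cyp7b1, Cyp8b1 and Cyp27a1. This gave 69 members among 19151 genes in the table of the high-fat diet (HFD) and 74 among 24233 genes in the table of the Western diet (WD), with 68 members in both. The 75 different members belong to 28 subfamilies in 10 families, and 19 subfamilies have 1 member.

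All samples came from male C57BL6 mice that were fed chow for 8 weeks and then a diet for 16 weeks. The HFD is high in fat, and the WD is high in fat and cholesterol. NgBR, the product of Nus1, is a subunit of the cis-prenyltransferase that makes dolichol, the lipid carrier of sugars in protein glycosylation. Liver-specific knockout mice (N-LKO) carry loxP-flanked NgBR alleles and a Cre recombinase under the albumin promoter, which acts in hepatocytes, so other liver cells keep the gene. The WT group is given as WT, without a statement on its loxP or Cre alleles. Libraries came from 4 WT and 4 N-LKO livers under HFD, and from 3 livers of each genotype and 3 tumors of N-LKO mice under WD. The tumors were not tied to particular livers by their labels. HFD and WD samples lie in separate tables, so no level under HFD was tested against one under WD.

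P450s are heme enzymes that insert an oxygen atom into their substrates. Most liver members sit in the endoplasmic reticulum and take electrons from the P450 reductase Por. Members of families Cyp1, Cyp2 and Cyp3 oxidize drugs, toxins and steroids, and members of family Cyp4 hydroxylate fatty acids and eicosanoids at the end of the chain. The remaining families mostly have narrow substrates, such as retinoic acid, oxysterols and steroid hormones. Liver P450s are known for switching on under nuclear receptors that sense foreign compounds or fatty acids, for zones along the liver lobule and for differences between the sexes in rodents.

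Total counts per library were 9096110 to 12215784 under HFD and 15494731 to 20200618 under WD. Nus1 was lower in every N-LKO liver and tumor than in every WT liver of the same diet, with 29.4 to 38.0 against 82.5 to 96.2 counts-per-million (CPM) under HFD. Under WD it lay at 88.2 to 98.9 CPM in WT livers, 41.7 to 51.1 CPM in N-LKO livers and 28.99 to 43.99 CPM in tumors. WT replicate 2 under WD stood apart with the lowest scaling factor, 0.806, where the other 16 libraries lay between 0.941 and 1.15. The tissue label was checked with 9 hepatocyte markers, of which none was at 0 in any group. Their summed level was 68219 to 78733 CPM in WT and 62435 to 82748 CPM in N-LKO livers with HFD, and 48143 to 62224, 35302 to 44537 and 38935 to 66402 CPM in WT livers, N-LKO livers and tumors under WD. The libraries are bulk tissue, in which fewer cells of a type and less RNA per cell cannot be told apart.

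Many members lie in tandem clusters of close copies, given here by their GRCm38 positions. The 14 Cyp2c genes lie on chromosome 19 between 39007019 and 44029208, the 7 Cyp2d genes on chromosome 15 between 82370527 and 82794294, the 9 Cyp3a genes on chromosome 5 between 137892932 and 146113287, and the 6 Cyp4a genes on chromosome 4 between 115299046 and 115621602. The 4 Cyp2a genes lie on chromosome 7 between 26307169 and 27037375. Cyp2c23, from 44005022, lies apart from the other Cyp2c genes, which end at 40187333. Cyp3a13, up to 137921619, lies apart from the other Cyp3a genes, which begin at 145345279. By coding sequence, 32 members fall into 11 groups that are at least 90% identical. The deposited counts divide a read among the genes it could come from, so values of such copies are uncertain, and sums over a group are given beside many of them. Each copy is counted as a member below, so counts and shares of members are not of independent genes. In 3 members fewer than 50% of the 75-base stretches of the transcript were unique to the gene, namely Cyp3a41a with 4.73%, Cyp3a41b with 9.10% and Cyp2c40 with 42.9%.

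Cyp2a4 (ENSMUSG00000074254.4, chr7:26307169-26315088) and Cyp2a5 (ENSMUSG00000005547.14, chr7:26835305-26843548), both on the plus strand, show how close such copies are. Cyp2a4 is a steroid 15-alpha-hydroxylase that is typical of female liver, and Cyp2a5 is a coumarin 7-hydroxylase. Their coding sequences of 1485 bases differ at 23 positions, and 23.2% of the 75-base stretches of the coding sequence are the same in both. The stretch with the most differences, from base 595 to base 669 counted from the A of the start codon, is shown because reads here can be told apart. Capitals mark the 5 bases that differ.
Cyp2a4: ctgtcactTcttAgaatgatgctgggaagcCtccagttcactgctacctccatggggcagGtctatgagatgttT
Cyp2a5: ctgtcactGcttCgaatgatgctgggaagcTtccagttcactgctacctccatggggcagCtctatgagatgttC

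Cyp4a12a and Cyp4a12b, fatty acid omega-hydroxylases typical of male liver, also differ at 23 positions, of 1527, and here 46.0% of the stretches are the same. Their most different stretch, from base 676 to base 750, is shown with its 6 differing bases in capitals. The values of the pair are given below as a sum.
Cyp4a12a: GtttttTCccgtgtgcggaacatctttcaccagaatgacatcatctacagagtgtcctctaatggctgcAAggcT
Cyp4a12b: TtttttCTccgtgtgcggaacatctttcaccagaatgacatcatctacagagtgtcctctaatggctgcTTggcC

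RefSeq promoter windows of GRCm38.p6, from 250 bases before to 50 bases after the transcript start, were matched by symbol for 60 of the 75 members and gave 65 windows. Short motifs were searched on both strands as exact letters. The TATA box TATAAA was in 30 of the 65 windows, or 46.2%, against 13.6% of all 32851 windows. CAAAGTCCA, a form of the site of the liver factor HNF4A, was in 10 windows or 15.4%, all in Cyp2c or Cyp3a genes, against 0.475% of all. The nuclear receptor hexamer AGGTCA was in 17 windows (26.2% against 16.3%). GCGTG, the core of the aryl hydrocarbon receptor (AhR) element, was in 13 (20% against 32.4%), and the STAT element TTCNNNGAA, with N for any base, in 2 (3.08% against 8.30%). Windows of tandem copies are not independent of each other, and a match describes letters only.

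The windows of 6 members whose levels are described below are shown, with the TATA box, the HNF4A form and the receptor hexamer on either strand in capitals. Cyp2e1 (chr7:140763569-140763868, plus strand), the ethanol-oxidizing P450, and Cyp2c29 (chr19:39286835-39287134, plus strand), an inducible epoxygenase, hold a TATA box close before the start.
Cyp2e1: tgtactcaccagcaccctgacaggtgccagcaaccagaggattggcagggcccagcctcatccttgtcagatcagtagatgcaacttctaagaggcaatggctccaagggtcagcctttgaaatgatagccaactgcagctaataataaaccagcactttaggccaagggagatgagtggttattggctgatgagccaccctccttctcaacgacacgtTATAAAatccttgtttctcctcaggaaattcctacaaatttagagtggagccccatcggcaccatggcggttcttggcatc
Cyp2c29: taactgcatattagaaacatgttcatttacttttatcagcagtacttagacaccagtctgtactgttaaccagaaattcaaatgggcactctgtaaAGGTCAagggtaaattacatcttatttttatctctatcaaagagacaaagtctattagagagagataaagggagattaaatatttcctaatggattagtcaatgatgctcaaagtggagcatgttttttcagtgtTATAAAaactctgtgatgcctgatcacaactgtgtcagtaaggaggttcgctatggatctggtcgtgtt
Cyp3a11 (chr5:145879805-145880104, minus strand), the main inducible drug-oxidizing P450 of mouse liver, holds the TATA letters, the hexamer and the HNF4A form. Cyp2f2 (chr7:27119705-27120004, plus strand), a naphthalene-oxidizing P450 of periportal hepatocytes and airway cells, holds AGGTCA and no TATAAA.
Cyp3a11: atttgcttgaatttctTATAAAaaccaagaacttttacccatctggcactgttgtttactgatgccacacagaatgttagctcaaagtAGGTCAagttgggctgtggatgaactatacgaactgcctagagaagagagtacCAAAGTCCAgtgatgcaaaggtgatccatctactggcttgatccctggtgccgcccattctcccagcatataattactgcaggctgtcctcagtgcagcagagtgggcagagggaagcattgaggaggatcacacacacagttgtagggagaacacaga
Cyp2f2: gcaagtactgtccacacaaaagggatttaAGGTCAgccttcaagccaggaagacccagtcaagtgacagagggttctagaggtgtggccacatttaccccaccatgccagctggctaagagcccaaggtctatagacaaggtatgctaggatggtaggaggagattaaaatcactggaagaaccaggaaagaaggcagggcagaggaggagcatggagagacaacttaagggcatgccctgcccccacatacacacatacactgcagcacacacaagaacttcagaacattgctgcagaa
Cyp2a4 (chr7:26306942-26307241, plus strand) and Cyp2a5 (chr7:26835089-26835388, plus strand) differ at 5 of 299 bases when 1 is shifted by 1 base, and hold the same 2 motifs.
Cyp2a4: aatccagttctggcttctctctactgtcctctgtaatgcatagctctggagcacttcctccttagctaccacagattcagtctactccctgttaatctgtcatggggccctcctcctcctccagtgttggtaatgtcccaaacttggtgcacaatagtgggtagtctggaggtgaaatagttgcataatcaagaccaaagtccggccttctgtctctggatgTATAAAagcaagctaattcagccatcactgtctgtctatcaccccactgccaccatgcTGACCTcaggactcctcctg
Cyp2a5: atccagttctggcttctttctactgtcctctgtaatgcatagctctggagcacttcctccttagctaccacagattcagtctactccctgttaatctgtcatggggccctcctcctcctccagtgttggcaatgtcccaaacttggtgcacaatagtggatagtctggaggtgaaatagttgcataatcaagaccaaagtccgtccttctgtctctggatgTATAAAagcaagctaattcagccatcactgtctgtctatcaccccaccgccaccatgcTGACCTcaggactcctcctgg

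The family took 2.03%, 2.27%, 2.20% and 2.34% of all counts in the 4 WT livers under HFD and 2.22%, 2.18%, 2.38% and 2.28% in the 4 N-LKO livers, ranges that overlap. Under WD it took 1.80%, 2.10% and 2.01% in WT livers, 1.44%, 1.62% and 1.67% in N-LKO livers and 1.11%, 1.34% and 1.17% in tumors. The 3 WD groups did not overlap, with means of 1.97% ± 0.154 (SD, n = 3), 1.58% ± 0.119 and 1.21% ± 0.123. The WT value of replicate 2 was the highest, so leaving it out could not make the WT and N-LKO ranges overlap. These shares were not tested. The family total under WD was 14255, 15027 and 16243 CPM in N-LKO livers and 10421, 11725 and 11675 CPM in tumors. Of it, Cyp2e1 alone held 5457, 5326 and 5510 CPM in N-LKO livers and 3254, 130 and 229 CPM in tumors. Between these 2 groups 30 of the 65 members tested had a log2 fold change below 0, so the lower share is not a fall of each member. Shares are of counts, so longer transcripts weigh more.

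**Figure D1:**
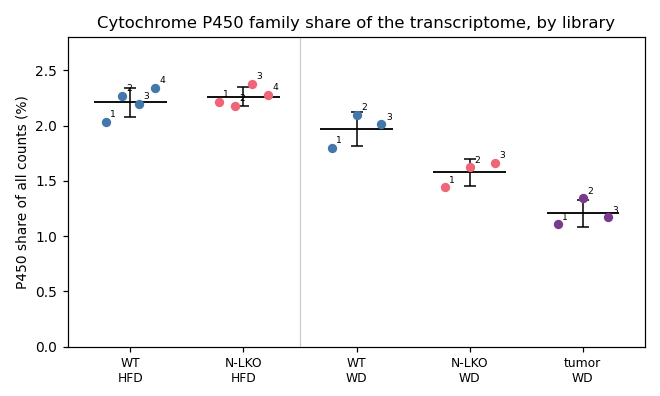
Percent of all counts of a library that fall on P450 genes (vertical axis) in the 5 groups (horizontal axis). Points are libraries with their replicate number, and the bar and whiskers are the mean ± SD. The HFD groups overlap, with means of 2.21% and 2.26%, whereas under WD the WT livers, N-LKO livers and tumors lie in 3 separate ranges. Abundant members weigh most in the share, above all Cyp2e1 in livers.

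Levels of different members were compared only as CPM per kilobase of transcript (CPM/kb). Cyp2e1 was the most abundant member in all 4 liver groups, at 5841 ± 539.9 CPM/kb (SD, n = 4) in WT and 5169 ± 791 CPM/kb in N-LKO livers under HFD, and 4716 ± 1096 and 2963 ± 51.7 CPM/kb (n = 3) under WD. Next in these 4 groups came Cyp4a10 and Cyp4a14, except that Cyp3a11 preceded both in N-LKO livers under WD. The fatty acid hydroxylases Cyp4a10 and Cyp4a14 lay within each other's SD in each liver group, for example 800.1 ± 147 and 752 ± 201 CPM/kb in WT livers under HFD. In tumors the order differed, with Cyp3a11 first at 1307 ± 583 CPM/kb and Cyp2e1 next at 657 ± 969 CPM/kb, an SD above its mean. Of the family's summed CPM, Cyp2e1 made up 44.4% to 49.3% in WT and 36.7% to 47.1% in N-LKO livers under HFD, 35.3% to 42.1% in WT livers under WD, 33.9% to 38.3% in N-LKO livers under WD and 1.11% to 31.2% in tumors. The Cyp3a subfamily made up 2.75% to 5.30%, 5.19% to 6.03%, 4.17% to 13.8%, 12.2% to 23.9% and 22.1% to 46.0% in the same groups.

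The effect of NgBR loss under HFD was compared first. In N-LKO livers Cyp2a4 and Cyp1b1 were higher and Cyp4f14 and Cyp2d40 lower, and the summed Cyp3a subfamily was higher. These 4 of the 56 members tested passed an edgeR adjusted p of 0.05, where 4.84% of the 13460 genes tested passed (2.56% higher, 2.29% lower). The median log2 fold change was -0.05 over the members and -0.01 over all genes. The groups did not overlap for 9 members, 4 higher and 5 lower, against 7.38% higher and 7.4% lower of all genes. These counts of members were thus near the shares of all genes. At an unadjusted p under 0.05 there were 24 members, 10 higher and 14 lower (17.9% and 25% of the members, against 11.2% and 11.5% of all genes). Of the summed subfamilies Cyp1b and Cyp3a passed, both higher, where 4.9% of all features passed, and of the sums of near-identical genes that of Cyp2d9 and its copies did, lower (4.89%). The DESeq2 test called 9 members, adding Cyp2a22, Cyp2c29, Cyp2c37, Cyp2d9 and Cyp2j5, against 7.42% of all genes. The other 13 members in the table, among them Cyp1a1, Cyp2b10 and Cyp3a41a, fell below the filter on low counts. Markers of other liver cells moved under HFD as well. Of the macrophage markers 2 of 8 tested were lower, of the endothelial markers 1 of 7 was lower, and of the cholangiocyte markers 1 of 2 tested was higher, the 6 listed summing to 20.5 to 38.9 CPM in WT and 54.96 to 100.3 CPM in N-LKO livers. Their part in the results was not tested, and the hepatocyte markers had 0 of 9 past the threshold.

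Cyp2a4 stood at 2.69, 1.76, 1.15 and 2.88 CPM in WT and 18.01, 18.2, 8.41 and 7.02 CPM in N-LKO livers. Every N-LKO liver was above every WT liver (log2 fold change 2.61, SE 0.38, adjusted p = 0.0076). Its copy Cyp2a5 was far more abundant, at 564, 462, 263 and 656 CPM in WT and 884, 425, 1149 and 1105 CPM in N-LKO livers, with groups that overlap (log2 fold change 0.87, SE 0.31, adjusted p = 0.119). The sum of the pair did not pass (log2 fold change 0.89, SE 0.30, adjusted p = 0.108). Nearly all of the sum is Cyp2a5. Of the 75-base stretches of the Cyp2a4 transcript 77.9% were unique to it, and the part of shared reads in the result was not tested. Cyp2a22, a close copy of Cyp2a12, lay at 54.0, 26.9, 20.1 and 49.1 CPM in WT and 65.8, 60.1, 64.9 and 62.8 CPM in N-LKO livers, with no overlap and log2 fold change 0.76, SE 0.24, adjusted p = 0.0944. The sum of Cyp2a12 and Cyp2a22 overlapped (log2 fold change 0.27, SE 0.12, adjusted p = 0.197). The whole Cyp2a subfamily did not pass (log2 fold change 0.61, SE 0.21, adjusted p = 0.105).

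Cyp3a11 stood at 461, 131, 96.4 and 120.5 CPM in WT and 656, 615, 553 and 507 CPM in N-LKO livers. The groups did not overlap, but WT replicate 1 lay close to the N-LKO range and far from the other WT livers. Cyp3a11 did not pass alone (log2 fold change 1.53, SE 0.41, adjusted p = 0.0563) or summed with its copies Cyp3a16, Cyp3a41a, Cyp3a41b and Cyp3a44 (log2 fold change 1.52, SE 0.41, adjusted p = 0.0555), and without WT replicate 1 it did alone (log2 fold change 2.33, adjusted p = 4.34e-05). The sum of Cyp3a members was 1081, 654, 678 and 845 CPM in WT and 1272, 1136, 1314 and 1156 CPM in N-LKO livers, and was higher in N-LKO (log2 fold change 0.58, SE 0.15, adjusted p = 0.0472). This call was lost in 7 of the 8 leave-one-out fits, all except that without WT replicate 1, with adjusted p up to 0.124. The other abundant members, Cyp3a25 at 323 to 439.9 CPM in WT and 283 to 385 CPM in N-LKO livers and Cyp3a13 at 183 to 256 and 219 to 346 CPM, had log2 fold changes of -0.08 and 0.25 and overlapped.

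In family Cyp1, Cyp1b1, an estrogen- and procarcinogen-oxidizing P450 that is low in hepatocytes, stood at 1.15, 1.24, 0.556 and 0.407 CPM in WT and 2.49, 3.05, 2.28 and 2.56 CPM in N-LKO livers. It was higher in every N-LKO liver (log2 fold change 1.61, SE 0.33, adjusted p = 0.022). The call was lost when WT replicate 4 or either of N-LKO replicates 1 and 4 was left out, with adjusted p up to 0.0597. Markers of stellate cells and fibroblasts, cells in which Cyp1b1 is known to be expressed, summed to 147 to 268 CPM in WT and 213 to 321 CPM in N-LKO livers, with 0 of 8 tested past the threshold, 6 higher and 1 lower at an unadjusted p under 0.05 and none of 9 at 0 throughout a group. Their part in the result was not tested. Cyp1a2, the caffeine-oxidizing P450 of pericentral hepatocytes, was at 138.5, 304, 263 and 159.7 CPM in WT and 176.4, 88.8, 137 and 194 CPM in N-LKO livers and overlapped (log2 fold change -0.54, SE 0.27, adjusted p = 0.26). Cyp1a1 was below the filter, at 0.418 to 2.20 and 0.412 to 1.28 CPM.

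Cyp4f14, which hydroxylates leukotriene B4 and vitamins E and K, was at 71.7, 72.3, 76.1 and 67.01 CPM in WT and 50.9, 55.2, 45.7 and 53.5 CPM in N-LKO livers. All N-LKO values were below all WT values (log2 fold change -0.48, SE 0.08, adjusted p = 0.0137), and the call held in each of the 8 leave-one-out fits. Cyp2d40 was at 36.2, 45.6, 43.0 and 40.4 CPM in WT and 30.8, 28.8, 32.5 and 33.2 CPM in N-LKO livers, again with no overlap (log2 fold change -0.40, SE 0.09, adjusted p = 0.0351), but lost its call in 7 of those 8 fits, all except that without WT replicate 1. Cyp2d9, a male-typical steroid 16-alpha-hydroxylase, was at 657, 855, 814 and 585 CPM in WT and 462, 249, 379.9 and 567 CPM in N-LKO livers and did not pass alone (log2 fold change -0.81, SE 0.21, adjusted p = 0.0518). Summed with its copies Cyp2d10, Cyp2d11 and Cyp2d12, it was lower in N-LKO livers, at 818, 595, 711 and 929.9 against 1034, 1302, 1221 and 1002 CPM in WT (log2 fold change -0.58, SE 0.14, adjusted p = 0.0399). That call was lost in 6 of the 8 leave-one-out fits. Cyp2j5, an arachidonic acid epoxygenase, was at 617, 705, 684 and 641 CPM in WT and 575, 529, 569.9 and 512 CPM in N-LKO livers, apart but not past the threshold (log2 fold change -0.28, SE 0.08, adjusted p = 0.082).

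The largest members overlapped between genotypes. Cyp2e1 was at 9467, 11692, 10389 and 11280.2 CPM in WT and 9211, 7631, 11079.6 and 9980.2 CPM in N-LKO livers (log2 fold change -0.18, SE 0.13, adjusted p = 0.452). Cyp2d26 had a log2 fold change of 0.01 (SE 0.11). The PPAR alpha targets Cyp4a10 and Cyp4a14 were at 1241 to 1965 and 1229 to 2349 CPM in WT and 1423 to 2339 and 1488 to 3557 CPM in N-LKO livers, with log2 fold changes of 0.03 (SE 0.17) and 0.28 (SE 0.25). Cyp4v3, a fatty acid hydroxylase, lay at -0.14 (SE 0.09). In the remaining families none of the 6 members tested passed. They were Cyp17a1 of steroid synthesis (log2 fold change 1.04, SE 0.33, adjusted p = 0.0888), the oxysterol hydroxylases Cyp39a1 (0.19, adjusted p = 0.713) and Cyp46a1 (0.38, adjusted p = 0.503), the retinoic acid hydroxylases Cyp26b1 (-0.82, adjusted p = 0.136) and Cyp26a1 (0.97, adjusted p = 0.162) and Cyp20a1, whose substrate is not known (0.23, adjusted p = 0.501). Cyp21a1, a steroid 21-hydroxylase, was below the filter at 0.111 to 1.15 and 0.175 to 0.880 CPM.

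**Figure D2:**
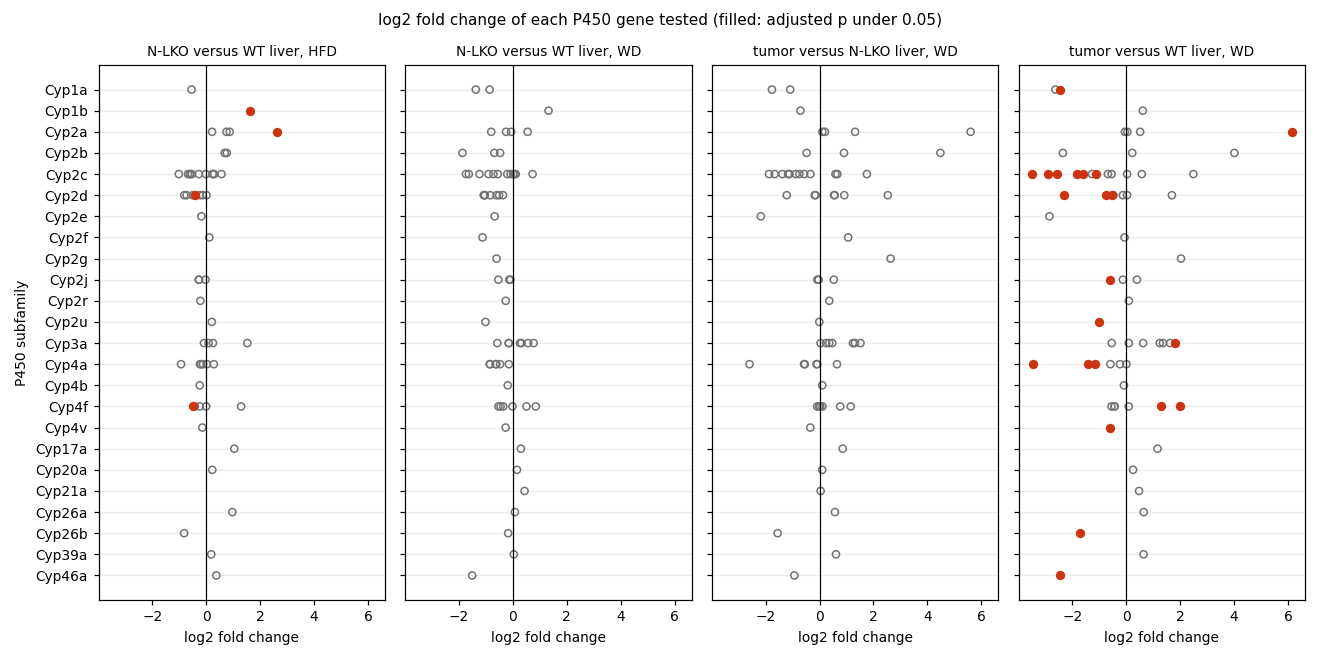
log2 fold change (horizontal axis) of each P450 gene tested, in the row of its subfamily (vertical axis), for 4 comparisons. Filled points passed an edgeR adjusted p of 0.05, 4 under HFD, 0 between genotypes under WD, 0 between tumor and N-LKO liver and 22 between tumor and WT liver.

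Under WD, 0 of the 65 members tested passed in edgeR between the genotypes, as did 0% of the 17829 genes tested. Below that threshold many members lay lower in N-LKO livers. The median log2 fold change was -0.37 over the members against 0.01 over all genes, and 48 of 65 were below 0, against 48.6% of all genes. At an unadjusted p under 0.05 there were 17 members, 2 higher and 15 lower (23.1% of the members lower, against 5.31% of all genes, and 3.08% higher, against 7.1%). Of the members, 22 were lower in all N-LKO than in all WT livers (33.8%, against 13.6% of all genes), and 2 were higher, against 14.4%. Leaving out 1 library can only keep or raise such a count. The count of lower members was 27 without WT replicate 2 (41.5%, against 16.6% of all genes). It was 24 without N-LKO replicate 3 (36.9%, against 16.8%). The DESeq2 test called 4 members, all lower, namely Cyp2c29, Cyp2c54, Cyp2u1 and Cyp46a1, against 0.555% of all genes, and limma-voom called 0. The other 9 members in the table fell below the filter. The hepatocyte markers given above also lay lower in N-LKO livers, 9 of 9 with a log2 fold change below 0 and a median of -0.46, with 0 of 9 past the threshold, and their part in the result was not tested.

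Cyp2c29 had the lowest adjusted p of any member. It was at 263, 274 and 284 CPM in WT and 119, 104.1 and 125 CPM in N-LKO livers, with narrow and separate ranges (log2 fold change -1.24, SE 0.19, adjusted p = 0.15). When the 2 liver groups were fitted without the tumors, it passed as the only member (log2 fold change -1.23, adjusted p = 0.0277), against 0.0356% of all genes. The near-identical epoxygenases Cyp2c37, Cyp2c50 and Cyp2c54 summed to 522, 724 and 768 CPM in WT and 251, 297 and 326 CPM in N-LKO livers (log2 fold change -1.21, SE 0.59, adjusted p = 0.429). The sum of all Cyp2c members was 1377, 1495 and 1598 CPM in WT and 911, 939 and 905 CPM in N-LKO livers, also apart (log2 fold change -0.70, SE 0.18, adjusted p = 0.351). The Cyp2d sum lay at 1614, 2347 and 1589.9 and 1065, 1109 and 1204 CPM (log2 fold change -0.72, SE 0.30, adjusted p = 0.388). All 7 Cyp2d members had log2 fold changes below 0, from -1.08 for Cyp2d40 to -0.37 for Cyp2d22, with Cyp2d9 at -1.04 and Cyp2d26 at -0.60.

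Cyp2e1 was at 7517, 10964 and 7455 CPM in WT and 5457, 5326 and 5509.8 CPM in N-LKO livers, apart, in a fit where the 3 WD groups share 1 estimate of the spread (log2 fold change -0.67, SE 0.91, adjusted p = 0.769). Cyp1a2 was at 174, 234 and 169 and 123, 121 and 73.3 CPM (log2 fold change -0.86, SE 0.83, adjusted p = 0.665), and its low neighbour Cyp1a1 at 1.65, 1.90 and 1.67 and 0.734, 0.428 and 0.851 CPM (log2 fold change -1.37, SE 0.38, adjusted p = 0.353). Cyp1b1 ran the other way, at 4.46, 2.85 and 8.11 CPM in WT and 13.2, 11.7 and 13.8 CPM in N-LKO livers (log2 fold change 1.32, SE 0.37, adjusted p = 0.353), and was with Cyp4f16 1 of the 2 members higher in all N-LKO livers. The stellate and fibroblast markers summed to 437 to 919 CPM in WT and 889 to 1072 CPM in N-LKO livers. Their part in the Cyp1b1 result was not tested. Cyp4f16 lay at 4.05, 1.42 and 2.80 and 4.31, 5.03 and 5.58 CPM (log2 fold change 0.85, SE 0.37, adjusted p = 0.395). Cyp2d9 summed with its copies had log2 fold change -0.83, SE 0.39, adjusted p = 0.418.

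Cyp3a11 was at 1989, 392 and 1504 CPM in WT and 1907, 1492 and 3228 CPM in N-LKO livers, with WT replicate 2 well below the rest (log2 fold change 0.77, SE 0.54, adjusted p = 0.553). Without that library the log2 fold change was 0.34 (adjusted p = 0.955). Cyp3a25 and Cyp3a13 overlapped between genotypes, with log2 fold changes of -0.15 (adjusted p = 0.849) and -0.58 (adjusted p = 0.423). The same WT library was also low in other members that vary widely, with 1.36 CPM of Cyp2b9, a phenobarbital-inducible and female-typical P450, against 53.4 and 41.7 CPM in the other WT livers. It was high in Cyp4a14, at 1067, 3732 and 2922 CPM in WT and 706, 2439 and 1121 CPM in N-LKO livers (log2 fold change -0.86, SE 0.63, adjusted p = 0.569). Cyp4a10 lay at 1181, 2802 and 2052 and 1002, 1084 and 1277 CPM (log2 fold change -0.84, SE 0.35, adjusted p = 0.386; with its copies, -0.84), and Cyp4v3 at 410.0, 404 and 309 and 334, 312 and 287 CPM (log2 fold change -0.27, SE 0.17, adjusted p = 0.512).

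In the families with narrow substrates, the cholesterol 24-hydroxylase Cyp46a1 was at 3.57, 4.48 and 7.16 CPM in WT and 2.15, 1.19 and 2.02 CPM in N-LKO livers (log2 fold change -1.51, SE 0.39, adjusted p = 0.353). The other oxysterol hydroxylase, Cyp39a1, lay at 0.03 (SE 0.34). Log2 fold changes of Cyp17a1, Cyp20a1, Cyp21a1 and Cyp26b1 were 0.30, 0.15, 0.43 and -0.17, each with groups that overlapped.

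**Figure D3:**
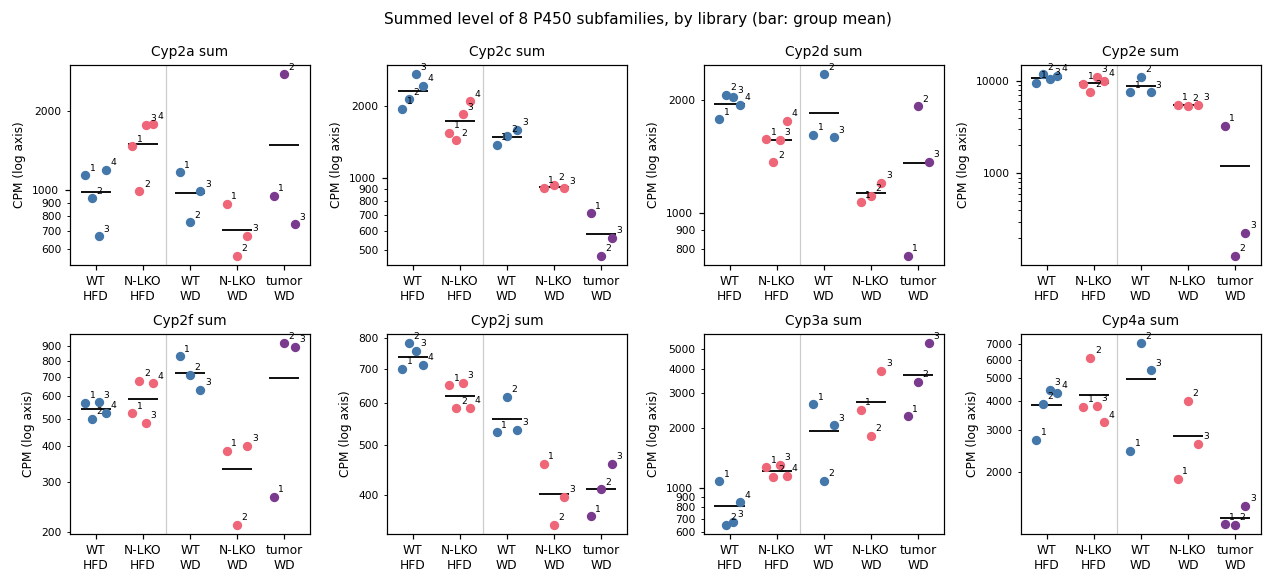
Summed CPM of 8 P450 subfamilies (vertical axis, log scale) in each library of the 5 groups (horizontal axis), with replicate numbers and a bar at the group mean. Under WD the Cyp2c, Cyp2d, Cyp2e, Cyp2f and Cyp2j sums of the N-LKO livers lie below those of all WT livers, and in tumors the Cyp2e sum spans 129.7 to 3254 CPM.

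Whether the genotype effect differed between the diets was tested over the 14 livers as an interaction, where a negative value is a lower N-LKO to WT ratio under WD than under HFD. The samples of each diet form a separate table with its own depth, so diet and table cannot be told apart in this test. Cyp2f2 and Cyp2u1 passed among 61 members tested, both negative, against 1.62% of 15850 genes (1.03% negative). Of the 61 members, 52 or 85.2% had a value below 0, against 49.5% of all genes, and the medians were -0.30 and 0.00. Close copies that share reads are counted singly here and are not independent. At an unadjusted p under 0.05 there were 14 members, all negative (23%, against 10.8% of all genes, with 9.18% higher). The hepatocyte markers had a median of -0.58, with 9 of 9 below 0 and 1 past the threshold, and their part in the result was not tested.

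Cyp2f2 was at 569.5, 499.6, 570.5 and 525 CPM in WT and 523, 679, 483 and 667 CPM in N-LKO livers with HFD, where the groups overlapped. Under WD it was at 831, 713 and 632 CPM in WT and 385, 212 and 402 CPM in N-LKO livers, where they did not. Cyp2f2 did not pass between genotypes under WD (edgeR adjusted p = 0.371). The difference between the effects was -1.22 on the log2 scale (SE 0.27, adjusted p = 0.0355). Cyp2u1, which hydroxylates long-chain fatty acids, was at 42.7, 33.6, 44.6 and 38.1 and 48.7, 49.9, 45.9 and 39.4 CPM under HFD and at 78.3, 59.0 and 34.8 and 26.6, 32.8 and 25.9 CPM under WD, with a difference of -1.20 (SE 0.28, adjusted p = 0.0423). These calls were lost in 11 and 12 of the 14 leave-one-out fits, with values between -1.38 and -0.98 for Cyp2f2 and between -1.45 and -0.91 for Cyp2u1. With a length and GC offset neither passed (log2 fold change -1.08, adjusted p = 0.0836 for Cyp2f2 and log2 fold change -1.31, adjusted p = 0.0613 for Cyp2u1), nor did Cyp2u1 in limma-voom (adjusted p = 0.0557). Cyp2f2 kept its call without HFD N-LKO replicate 3, HFD WT replicate 3 and WD WT replicate 3. Cyp2u1 kept it without HFD WT replicate 3 and WD WT replicate 3. The sums of their subfamilies, which have 1 member each, passed as well (1.64% of all features), and the DESeq2 test called 6 members, against 5.82% of all genes. Next came Cyp46a1 (-1.87, adjusted p = 0.0625) and Cyp2a5 (-1.65, adjusted p = 0.079), and the difference was -0.07 (SE 0.39) for the Cyp3a sum.

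**Figure D4:**
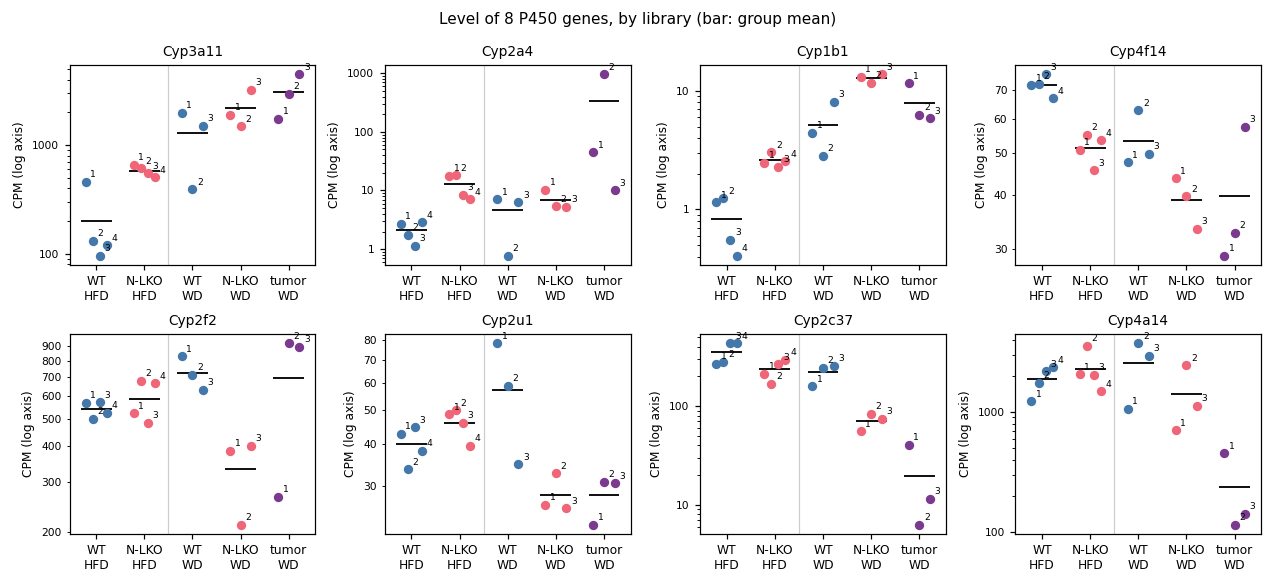
CPM (vertical axis, log scale) of 8 P450 genes in each library of the 5 groups (horizontal axis), with replicate numbers and a bar at the group mean. For Cyp2f2 the genotypes overlap under HFD and not under WD, where it did not pass the test between genotypes. WT replicate 1 under HFD and WT replicate 2 under WD stand apart for Cyp3a11, and Cyp2a4 reaches 955 CPM in tumor 2.

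Tumors were compared with both liver groups under WD, so the comparisons share the tumors and, with that of the genotypes, the livers. Against WT livers, 22 of the 65 members passed, 18 lower and 4 higher, against 14.9% of all genes (6.8% lower, 8.08% higher). The members that passed lower make up 27.7% of those tested. The medians were -0.12 over the members and 0.04 over all genes. Of the 65, 36 had a log2 fold change below 0, against 46.8% of all genes. In 24 members all tumors were below all WT livers (36.9%, against 16.4%). With the 2 groups fitted alone 9 members passed, against 4.12% of all genes. Leaving out 1 library changed the count of members called to 12 without WT replicate 1, 10 without WT replicate 2 and 13 without WT replicate 3, and to 23, 15 and 18 without tumors 1, 2 and 3. Markers of other cells also moved, the 6 cholangiocyte markers summing to 17.8 to 70.2 CPM in WT livers, 115.7 to 153 CPM in N-LKO livers and 195 to 524 CPM in tumors, with none at 0 and 2 of 6 past the threshold, both higher. Past the threshold were also 3 of 9 hepatocyte markers and 2 of 9 macrophage markers, all lower, 2 of 6 T and B cell markers, both higher, 2 of 9 stellate cell and fibroblast markers, 1 in each direction, and 3 of 7 endothelial markers, 2 higher and 1 lower. The part of any of them in the result was not tested.

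Of the summed subfamilies 6 passed, all lower in tumors than in WT livers, namely Cyp2c, Cyp2u, Cyp4a, Cyp4v, Cyp26b and Cyp46a, and of the sums of near-identical genes 4, against 14.9% of all features in both cases. Without 1 library, the calls of Cyp26b, Cyp2u and Cyp4v were lost in 5, 4 and 4 of the 6 fits, that of Cyp4a in 1, and those of Cyp2c and Cyp46a in 0. The Cyp2c sum stood at 710.2, 472 and 562 CPM in tumors against 1377, 1495 and 1598 CPM in WT livers (log2 fold change -1.36, SE 0.18, adjusted p = 0.00553). Of 12 Cyp2c members tested, 6 passed and were lower, from Cyp2c37 (log2 fold change -3.50, SE 0.58, adjusted p = 0.00957) to Cyp2c38 (log2 fold change -1.10, SE 0.27, adjusted p = 0.0272). Cyp2c29 was at 89.1, 54.9 and 90.7 CPM in tumors (log2 fold change -1.80, SE 0.19, adjusted p = 0.00309) and Cyp2c40 at 3.62, 2.12 and 1.62 CPM (log2 fold change -1.60, SE 0.32, adjusted p = 0.0149). Cyp2c37, Cyp2c50 and Cyp2c54 summed to 196, 21.3 and 61.3 CPM (log2 fold change -2.85, SE 0.62, adjusted p = 0.0188), a call lost without WT replicate 2 (adjusted p = 0.0616). Singly, Cyp2c50 had log2 fold change -2.56, SE 0.67, adjusted p = 0.033 and Cyp2c54 log2 fold change -2.90, SE 0.53, adjusted p = 0.0121. The sum of Cyp2c38 and Cyp2c39 and that of Cyp2c40, Cyp2c67, Cyp2c68 and Cyp2c69 passed too, at -1.05 and -1.04 (adjusted p = 0.033 and 0.0393), and were lost in 4 and 5 of the 6 fits without 1 library.

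Among fatty acid hydroxylases, Cyp4a14 was at 451, 115 and 141 CPM in tumors against 1067, 3732 and 2922 CPM in WT livers (log2 fold change -3.45, SE 0.69, adjusted p = 0.0149). Without WT replicate 2, the highest of them, the adjusted p was 0.054. Cyp4a10 was at 636, 509 and 1117 CPM (log2 fold change -1.42, SE 0.35, adjusted p = 0.0275) and its copy Cyp4a32 at 15.8, 12.03 and 17.9 CPM (log2 fold change -1.15, SE 0.22, adjusted p = 0.0135). With Cyp4a31 they summed to 675, 577 and 1173 CPM in tumors and 1227, 2903 and 2124 CPM in WT livers (log2 fold change -1.37, SE 0.34, adjusted p = 0.0276), a call lost in 4 of the 6 fits without 1 library. The pair Cyp4a12a and Cyp4a12b overlapped, at 66.8, 496 and 112 CPM in tumors and 157, 418 and 357 CPM in WT livers. The whole Cyp4a sum was lower (log2 fold change -1.97, SE 0.39, adjusted p = 0.0142), a call lost in 1 of those fits. Cyp4v3 was also lower (log2 fold change -0.61, SE 0.17, adjusted p = 0.0385), whereas Cyp4f16 (log2 fold change 2.01, SE 0.37, adjusted p = 0.0121) and Cyp4f18 (log2 fold change 1.27, SE 0.37, adjusted p = 0.0473), the latter a leukotriene B4 hydroxylase of leukocytes, were higher. Macrophage markers summed to 416 to 765 CPM in tumors and 581 to 932 CPM in WT livers, and markers of T and B cells to 8.71 to 13.6 and 3.53 to 4.77 CPM, and their part in the Cyp4f18 result was not tested.

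The remaining members that passed were lower in tumors, except Cyp2a4 and Cyp3a57. Cyp2d40, Cyp2d26 and Cyp2d22 had log2 fold changes of -2.29, -0.75 and -0.54, while the Cyp2d sum did not pass (log2 fold change -0.45, SE 0.30, adjusted p = 0.328). The epoxygenase Cyp2j5 (-0.62), Cyp2u1 (-1.02), the AhR target Cyp1a1 (-2.46), the retinoic acid hydroxylase Cyp26b1 (-1.72) and Cyp46a1 (-2.44) were lower. Cyp26b1 was at 9.0, 2.71 and 2.87 CPM in tumors against 12.9, 18.5 and 16.6 CPM in WT livers, and Cyp46a1 at 1.11, 1.20 and 0.469 against 3.57, 4.48 and 7.16 CPM. Cyp3a57 was low throughout, at 1.56, 1.69 and 1.98 CPM in tumors and 0.686, 0.0678 and 0.716 CPM in WT livers (log2 fold change 1.80, SE 0.54, adjusted p = 0.0491), and lost its call in each of the 6 fits without 1 library, while the sum with its copies Cyp3a25 and Cyp3a59 did not pass (adjusted p = 0.648). Of the 22 calls, those of Cyp1a1, Cyp2c29, Cyp2c37, Cyp2c40, Cyp2c54, Cyp2d40, Cyp46a1, Cyp4a32 and Cyp4f16 held in all 6 such fits.

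Several members that were far apart between tumors did not pass against WT livers. Cyp2e1 was at 3254, 129.7 and 229 CPM in the 3 tumors (log2 fold change -2.84, SE 0.98, adjusted p = 0.0752) and Cyp1a2 at 82.0, 4.27 and 7.46 CPM (log2 fold change -2.62, SE 0.88, adjusted p = 0.0704). For both, all tumors were below all WT livers. Cyp3a11, at 1755, 2959 and 4480.4 CPM in tumors, overlapped with WT livers (log2 fold change 1.24, SE 0.55, adjusted p = 0.146), as did Cyp3a25 (0.10, SE 0.30), and Cyp3a13 lay at -0.54 (SE 0.27). Cyp2d9 was at 151, 892 and 452 CPM (log2 fold change -0.48, SE 0.50, adjusted p = 0.541) and Cyp1b1 at 11.6, 6.27 and 5.89 CPM (log2 fold change 0.62, SE 0.37, adjusted p = 0.27). Cyp17a1, Cyp20a1, Cyp21a1 and Cyp39a1 overlapped between tumors and WT livers, with log2 fold changes of 1.16, 0.25, 0.48 and 0.64.

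Against N-LKO livers, 0 of 65 members passed in tumors by edgeR, where 0.499% of all genes passed (0.437% higher, 0.0617% lower), and 0 of the subfamily sums, where 0.557% of all features did. At an unadjusted p under 0.05 there were 26 members, 11 higher and 15 lower, against 10.1% and 8.19% of all genes, and the DESeq2 test called 7, against 5.73% of all genes. The medians were 0.04 over the members and 0.02 over all genes, and in 15 members all tumors were below all N-LKO livers (23.1%, against 11.6% of all genes). The count depended on tumor 1. Without it, which leaves tumors 2 and 3, 18 of 67 members tested passed, 10 lower and 8 higher, against 12% of all genes. Leaving out any other library of the 2 groups gave 0. The 10 lower members then were Cyp2e1 (log2 fold change -4.92, adjusted p = 0.00021), Cyp1a2 (-4.18), Cyp4a14 (-3.47), Cyp26b1 (-2.35) and the Cyp2c members Cyp2c37, Cyp2c38, Cyp2c40, Cyp2c50, Cyp2c67 and Cyp2c68. The 8 higher were Cyp2f2 (log2 fold change 1.45, adjusted p = 0.01), Cyp2a4 (6.11), Cyp2c23, Cyp2d10, Cyp2d12, Cyp2g1, Cyp2j6 and Cyp4f16. Of these, Cyp2a4 was at 955 CPM in tumor 2, while tumor 3, at 10.02 CPM, lay within the N-LKO range of 5.26 to 10.2 CPM. Cyp2d12 was at 9.40 and 0.784 CPM in tumors 2 and 3, against 0.539 to 0.713 CPM in N-LKO livers. The Cyp2c sum was at 911, 939 and 905 CPM in N-LKO livers and 710.2, 472 and 562 CPM in tumors, apart but not past the threshold with all libraries (log2 fold change -0.66, SE 0.18, adjusted p = 0.106), and so were the sum of Cyp4a (log2 fold change -1.16, SE 0.38, adjusted p = 0.158) and Cyp26b1 (log2 fold change -1.55, SE 0.43, adjusted p = 0.114). Of the other abundant members, log2 fold changes were 0.56 for Cyp2d9, -0.57 for Cyp4a10, -0.34 for Cyp4v3, 0.47 for Cyp3a11, 0.24 for Cyp3a25 and 0.04 for Cyp3a13, with adjusted p from 0.315 to 0.959. In family Cyp1, Cyp1a2 lay at -1.76, Cyp1a1 at -1.08 and Cyp1b1 at -0.71, and in the families with narrow substrates Cyp17a1, Cyp20a1, Cyp21a1, Cyp39a1 and Cyp46a1 at 0.86, 0.10, 0.04, 0.61 and -0.93.

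The 3 tumors were therefore set one by one against the mean of the N-LKO livers, as a description. Cyp2e1 was at 59.9% of that mean in tumor 1, 2.39% in tumor 2 and 4.22% in tumor 3, and Cyp1a2 at 77.4%, 4.03% and 7.04%. The sum of Cyp2c37, Cyp2c50 and Cyp2c54 was at 67.3%, 7.32% and 21.04%. Cyp2e1, Cyp1a2 and this sum hold 5 of the 8 members listed as pericentral below. For these, tumors 2 and 3 lay below tumor 1. The other 3 did not share that pattern, with Cyp2c29 at 76.8%, 47.3% and 78.1%, Cyp3a11 at 79.4%, 134% and 203%, and Cyp2a5 at 137%, 544% and 67.2%. Of the periportal members, Cyp2f2 was at 265, 922 and 898 CPM and thus at 79.6%, 277% and 269.7%, and Cyp17a1 at 15.8, 5.65 and 49.1 CPM and thus at 122%, 43.7% and 379%. In tumor 2 the pair lay on opposite sides of the livers. Tumor 2 stood out for Cyp2a4, at 45.1, 955 and 10.02 CPM in the 3 tumors, and for Cyp2a5, at 345, 1372 and 169 CPM. Against WT livers Cyp2a4 passed (log2 fold change 6.15, SE 1.54, adjusted p = 0.0281), with every tumor above every WT liver, but the call was lost without WT replicates 1, 2 or 3 and without tumor 2 (log2 fold change 2.50 without tumor 2), and the sum with Cyp2a5 did not pass (log2 fold change 1.12, SE 0.74, adjusted p = 0.318). Tumor 2 was also the highest for Cyp2d12, at 0.453, 9.40 and 0.784 CPM. Tumor 3 stood out for Cyp2b10, the classic target of the receptor CAR, at 0.201, 0.0445 and 18.04 CPM in the 3 tumors against 0.538, 0.0475 and 0.213 CPM in N-LKO livers, and for Cyp3a59, at 50.6, 20.5 and 156 CPM.

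**Figure D5:**
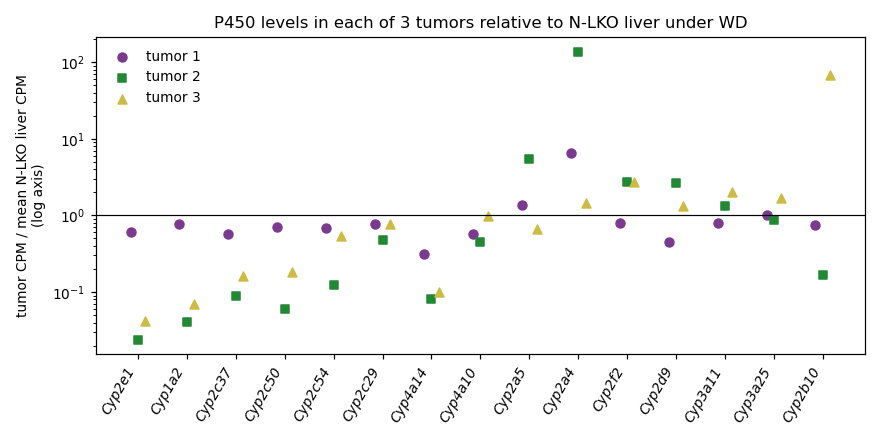
Level of 15 P450 genes in each of the 3 tumors divided by their mean in the 3 N-LKO livers under WD (vertical axis, log scale, with a line at 1). Tumors 2 and 3 lie far below the livers for Cyp2e1 and Cyp1a2 and above them for Cyp2f2, tumor 2 is highest for Cyp2a4 and tumor 3 for Cyp2b10.

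The members were also grouped by known regulation and place. Medians are given in the order N-LKO against WT under HFD, N-LKO against WT under WD, tumor against N-LKO and tumor against WT, in which those of all genes were -0.01, 0.01, 0.02 and 0.04. The shares of all genes that passed were 4.84%, 0%, 0.499% and 14.9% in that order, with 6.8% lower in tumor against WT. The 8 pericentral members (Cyp2e1, Cyp1a2, Cyp2c29, Cyp2c37, Cyp2c50, Cyp2c54, Cyp3a11 and Cyp2a5) had medians of -0.53, -0.88, -1.41 and -2.59, and 0, 0, 0 and 4 of them passed. Their summed level was 10639.5 to 12895 CPM in WT livers, 7541 to 9476 CPM in N-LKO livers and 4540.4 to 5721 CPM in tumors under WD, 3 ranges that did not overlap, and 11887 to 14048 and 9444 to 14123 CPM in WT and N-LKO livers under HFD, which did. Under WD, Cyp2e1 was most of this sum in livers, at 7455 to 10964 CPM in WT and 5326 to 5510 CPM in N-LKO. In tumors Cyp2e1 was at 130 to 3254 CPM. Cyp3a11 and Cyp2a5, at 2959 and 1372 CPM in tumor 2, were above the N-LKO mean there. The separate ranges are thus not a fall of each member. The 2 periportal members, Cyp2f2 and Cyp17a1, had medians of 0.58, -0.41, 0.96 and 0.55 and none passed in these 4 comparisons. The 4 PPAR alpha targets of the Cyp4a cluster had medians of -0.04, -0.74, -0.56 and -1.29, with 3 past the threshold and lower in tumor against WT. The 7 members inducible through CAR or PXR, receptors for foreign compounds, of which 5 were tested under HFD, had medians of 0.77, -0.80, 0.47 and 0.52 and 2 past the threshold, Cyp2c29 and Cyp2c37, both lower in tumor against WT. The 3 AhR targets of family Cyp1, 2 of them tested under HFD, had medians of 0.53, -0.86, -1.08 and -2.46, with Cyp1b1 past the threshold under HFD and Cyp1a1 in tumor against WT.

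Among 12 members typical of female liver, 6 were tested under HFD and all had log2 fold changes above 0, while 50.9% of all genes were below 0, and Cyp2a4 alone passed. Under WD 9 were tested, and the medians were 0.73, 0.03, 0.86 and 0.64. In tumor against WT, Cyp2a4 passed as higher and Cyp4a14 as lower among them. The 4 members typical of male liver (Cyp2d9, Cyp4a12a, Cyp4a12b and Cyp2u1) had medians of -0.50, -0.74, -0.04 and -0.53 and summed to 745 to 1199 CPM in WT and 467 to 770.0 CPM in N-LKO livers with HFD, ranges that overlapped, and of them Cyp2u1 passed in tumor against WT. Of 17 listed epoxygenase and eicosanoid genes, 11 were in the tables, all of Cyp2j or Cyp4f, with 8 tested under HFD and 9 under WD. The epoxygenases Cyp2c29, Cyp2c37, Cyp2c50 and Cyp2c54 described above were not on this list. Of those tested 1, 0, 0 and 3 passed, with medians of -0.25, -0.13, 0.03 and -0.12. In tumor against WT, Cyp4f16 and Cyp4f18 were higher and Cyp2j5 was lower. Of 3 retinoic acid hydroxylases 2 were tested and Cyp26b1 passed in tumor against WT, and of the 2 oxysterol hydroxylases Cyp46a1 did. Steroid synthesis was represented by Cyp17a1 and Cyp21a1, and vitamin D metabolism by the 25-hydroxylase Cyp2r1, at 6.62 to 10.99 CPM in WT livers under HFD, and none of these 3 passed in any comparison.

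P450s depend on heme, on electron donors and on transcription factors, and drugs oxidized by P450s are passed to conjugating enzymes. Of all genes, 14.9% passed in tumor against WT, 6.8% as lower. Of 11 genes of heme synthesis and breakdown, 0 passed under HFD, between genotypes under WD and in tumor against N-LKO, and 4 passed in tumor against WT, all lower, namely Alas1, the rate-limiting enzyme of heme synthesis (log2 fold change -1.98, SE 0.48, adjusted p = 0.0254), Alad (-0.85), Urod (-0.60) and the heme-degrading Hmox1 (-0.92). The medians were -0.05, -0.24, -0.04 and -0.28. Of 8 redox partners 1 passed, Cyb5b in tumor against WT (log2 fold change -0.99, SE 0.23, adjusted p = 0.0226), and the medians were 0.06, -0.24, 0.03 and -0.45. Por did not pass in any comparison (-0.19, -0.84, 0.03 and -0.81). Of 16 regulators tested, 6 were lower in tumor against WT, led by Nr1i3, which encodes CAR (log2 fold change -1.82, SE 0.33, adjusted p = 0.0116), with Cebpb (-1.22), Rxra (-1.20), Hnf4a (-0.75), Ppara (-0.71) and Nr1h4 (-0.56). Nr1i2, which encodes PXR, did not pass in any comparison. The medians of the regulators were -0.18, -0.29, -0.20 and -0.60.

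Of the 29 conjugating and other drug-metabolizing enzymes, 8 passed under HFD, against 4.84% of all genes. Those higher in N-LKO livers were the glutathione S-transferases Gsta1 (log2 fold change 1.96, SE 0.35, adjusted p = 0.0142), Gsta2 (1.40), Gsta4 (0.78), Gstm1 (0.71) and Gstm2 (0.64), and those lower were the aldehyde oxidase Aox3 (-0.73) and the glucuronosyltransferases Ugt2b1 (-0.54) and Ugt3a1 (-0.46). None passed between genotypes under WD. Against N-LKO livers, Gsta2 passed as higher in tumors (log2 fold change 2.46, SE 0.38, adjusted p = 0.0308). Against WT livers 9 passed in tumors, where 14.9% of all genes did, with Gsta2 (2.37), Nqo1 (2.00), Gsta4 (1.33) and Fmo2 (1.22) higher and Ugt2a3, Ces1d, Ugt3a1, Ephx2 and Aldh1a1 lower, from -1.41 to -0.79. The medians of the list were 0.07, -0.24, 0.12 and -0.14.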

How the data were processed

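Livers and tumors were profiled by RNA-seq. Per the study's methods, ribosomal RNA was removed and a small RNA library kit, also named in the labels, was used, and libraries were sequenced as single 75-base reads on a HiSeq 2000 and aligned with TopHat2 for cuffdiff. The submitters' processing notes name STAR, Partek and the build mm9, and this conflict was not resolved. Gene starts in the files match GRCm38 (GENCODE M21) for 18619 of 19151 and 23459 of 24233 genes, so GRCm38 positions are used. The values are the authors' deposited estimated counts per gene, which divide shared reads, and 69.3% and 66.2% of values were whole. They were rounded before testing, and depth was 9096110 to 20200618 counts per library.

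Groups were taken from the labels. Genes were filtered with filterByExpr, scaled by TMM and tested with edgeR 4.0.16 (R 4.3.3), by its two-sided quasi-likelihood F test with Benjamini-Hochberg adjustment over all genes and a threshold of 0.05. The HFD groups were fitted alone, the 3 WD groups together, and the 14 livers together for the interaction. SE is the fold change over the root of F and is approximate. CPM are scaled by TMM. Low CPM rest on few counts, where counting error adds to the spread. Alternatives were DESeq2 1.42.0, limma-voom (limma 3.58.1), other scalings, no filter, a replicate block, a length and GC offset, the 2 groups alone, and leaving out each library. Subfamily sums and sums of near-identical genes were fitted in the same way. The latter use coding identity of at least 90%, chosen after the data were seen, because no protein table was used here.

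Replicates are samples labelled as biological replicates. Members and lists (role lists, redox partners, heme, regulators, conjugating enzymes and cell markers) were chosen with earlier results of these data known, and 2 listed genes are not reported here. Named genes are all members past the threshold, the 3 most abundant of each of families 1 to 4, the most abundant of each other family, and members of the role lists. Others that are named (Cyp2a22, Cyp2a12, Cyp2c23, Cyp2c39, Cyp2c67, Cyp2c68, Cyp2d10, Cyp2d11, Cyp2d12, Cyp2g1, Cyp3a59) were chosen after their values were seen. Data were also simulated, with the common spread of each fit given to every gene. There the test recovered 92% of changes of 1 log2 unit under HFD and, under WD, 34% (genotype), 33% (tumor and N-LKO) and 24% (tumor and WT). These shares do not hold for members with a wider spread.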

Additional observations from a re-analysis of the deposited data

Results flagged for a closer look

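In 44 groups of 4 livers under HFD, the lowest or highest library was compared with the spread of the rest by Dixon's test, which by chance flags about 1 in 20 groups. There were 4 such members. Cyp17a1 was highest in WT replicate 4, at 38.9 CPM, where the WT livers held 13.6, 15.0, 15.5 and 38.9 CPM. Cyp20a1 stood apart in N-LKO replicate 3, at 13.9 CPM, where the N-LKO livers held 8.62, 8.57, 13.9 and 7.84 CPM. Cyp3a11 was highest in WT replicate 1, at 461 CPM, where the WT livers held 461, 131, 96.4 and 120.5 CPM, and without this library Cyp3a11 passed the test between genotypes. Cyp46a1 stood apart in N-LKO replicate 2, at 2.39 CPM, where the N-LKO livers held 4.72, 2.39, 4.68 and 4.64 CPM.

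By the edgeR test of the interaction with all libraries, the genotype effect differed between the diets for Cyp2f2, by -1.22 on the log2 scale (edgeR adjusted p = 0.0355), and for Cyp2u1, by -1.20 (adjusted p = 0.0423). Diet cannot be told apart from table here. Of 21 alternatives 13 lost the call of Cyp2f2 and 15 that of Cyp2u1, the replicate block and the length and GC offset among them.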

How the results depend on the processing

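The counts of calls depended mainly on the test and on single libraries. The DESeq2 test called 9 members under HFD where edgeR called 4, 4 against 0 between genotypes under WD, 7 against 0 in tumor against N-LKO, and 6 against 2 in the interaction. It called 6 against 2, 3 against 0, 3 against 0 and 4 against 2 subfamily sums, and 2 against 1, 2 against 0 and 1 against 0 sums of near-identical genes under HFD, in tumor against N-LKO and in the interaction. Limma-voom called 1 member and 1 subfamily in the interaction, and the length and GC offset 0 members. Fitting only the 2 groups compared gave 1 member between genotypes under WD, and 9 members and 3 subfamilies against 22 and 6 in tumor against WT, with fewer samples behind the spread. The cause of the other changes was not tested.

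Deviations of same-numbered libraries correlated weakly, from -0.124 to 0.107, and gave no clear pairing by number. Between N-LKO livers and tumors, replicates 1 and 2 matched their own number best (0.101 and 0.0591). Whether a tumor and an N-LKO liver came from the same mouse cannot be told from this, as the labels do not tie them. With the replicate number as a block, the count was 7 members and 2 near-identical sums under HFD, and 0 members and 0 subfamilies in the interaction. In 4 of the 13 same-numbered pairs the sample correlated best with its own number.

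Leaving out 1 library at a time gave 2 to 8 members under HFD, 0 to 0 between genotypes under WD, 0 to 18 in tumor against N-LKO, 10 to 23 in tumor against WT and 0 to 2 in the interaction. For subfamily sums the ranges were 0 to 3, 0 to 0, 0 to 6, 2 to 7 and 0 to 2, and for near-identical sums 0 to 2, 0 to 0, 0 to 3, 1 to 4 and 0 to 1. Under the other scalings and without the filter no count moved by more than 1.5 times. No called fold change changed sign under any alternative run, and of those outside the fits that left out a library 252 values kept and 42 lost their call, as 151 kept and 153 lost it in those fits. In the simulation, with 3 samples a group and the common spread of the WD fit, changes of 1 log2 unit were often not detected.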
